A study of Rattus norvegicus with 48 samples.

Results

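Serum microRNAs (miRNAs) of diabetic ZDF rats given parathyroid hormone (PTH) were compared with those of ZDF rats given placebo. The rats were selected by their labels alone: serum libraries of ZDF rats under PTH (n = 5) or placebo (n = 5), which are 10 of the 48 small RNA-seq libraries of the series. ZDF rats (fa/fa) carry a homozygous mutation of the leptin receptor and become obese and diabetic on a high-fat, high-carbohydrate chow. All were male, all had a defect drilled into the femur before treatment, and serum was taken after 12 weeks of subcutaneous PTH or water. The vehicle was injected daily and PTH less often, on most days of the week, so the groups differed in injection schedule as well as in the hormone. The leptin receptor is mutated in all tissues of the model, the femoral defect was healing in every rat, and serum pools miRNAs released by all organs and blood cells. A serum level therefore cannot tell more releasing cells of a type from more miRNA released per cell.

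PTH is the principal regulator of blood calcium. Given intermittently, it acts on its receptor in osteoblasts and osteocytes and builds bone, which is why fragments of the hormone are used against osteoporosis. MiRNAs are short RNAs that guide Argonaute proteins to messenger RNAs through a seed at bases 2 to 8. In blood they are protected by proteins, lipoproteins and vesicles and derive mainly from blood cells, endothelium and liver. The comparison asks whether a bone anabolic treatment leaves a trace in the circulating miRNAs of a diabetic animal.

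The mature sequences below belong to the 4 miRNAs with the smallest p-values, each in the order of its p, and to 2 relatives measured in the same sera: the opposite arm of the miR-27a hairpin, and miR-146a-5p, which has the seed of miR-146b-5p. MiR-218a-5p is added because its call depended on the treatment of low counts. The sequences were taken from RefSeq on the rat build GRCr8, which has an entry of the same name for 137 of the 154 tested miRNAs, and the seed is in capitals.
miR-27a-5p: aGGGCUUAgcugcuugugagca
miR-146b-5p: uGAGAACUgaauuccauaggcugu
miR-34a-5p: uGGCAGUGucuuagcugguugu
miR-3068-3p: gGUGAAUUgcaguacuccaaca
miR-27a-3p: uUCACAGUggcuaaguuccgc
miR-146a-5p: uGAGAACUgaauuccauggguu
miR-218a-5p: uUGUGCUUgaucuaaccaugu
Both arms of miR-27a lie in its hairpin gene on the minus strand, the 5p arm at chr19:40859655-40859676 and the 3p arm at chr19:40859614-40859634. MiR-146b-5p lies at chr1:255144874-255144897 on the plus strand, miR-146a-5p at chr10:28350053-28350074 on the minus strand and miR-34a-5p at chr5:165815971-165815992 on the plus strand. MiR-3068-3p lies at chr6:112811880-112811901 on the minus strand. MiR-218a-5p has 2 loci of the same mature sequence, on chromosomes 10 and 14.

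The libraries held 48637 to 124422 reads on miRNAs in placebo rats and 65498 to 104745 in PTH-treated rats, out of 3810861 to 8755690 reads in all. A read was counted on 462 of the 763 listed rat miRNAs in at least 1 of the 10 sera, and 279 to 337 miRNAs were detected per serum. The most abundant were miR-191a-5p, miR-486, miR-92a-3p, miR-16-5p, miR-21-5p and miR-25-3p, which include red cell miRNAs (miR-486, miR-16-5p, miR-92a-3p and miR-25-3p), and the 6 leading miRNAs of a library took 36.7% to 54.0% of its miRNA reads. Levels are given below as CPM (miRNA reads scaled to an equal library total by TMM), and fold changes as log2 of PTH over placebo.

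No miRNA differed between PTH and placebo at a false discovery rate (FDR) under 0.2, the threshold of the study's methods. After low counts were removed, 154 miRNAs were tested by edgeR's quasi-likelihood test, 0 of them (0%) passed, and the lowest FDR was 0.993. At an unadjusted p under 0.05 there were 4 miRNAs (2.6%), all higher under PTH: miR-27a-5p, miR-146b-5p, miR-34a-5p and miR-3068-3p. DESeq2 was fitted to a larger set, all 462 miRNAs with a read. It gave 0 calls at the same FDR and 7 of 462 at an unadjusted p under 0.05. By the exact permutation test, whose smallest p with 5 rats against 5 is 0.00794, 2 miRNAs had a p under 0.05. No miRNA had every PTH-treated rat above every placebo rat (0 of 154, 0%) or below it (0 of 154, 0%).

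Single rats had a large weight in these estimates. Of the 53 tested miRNAs chosen by the naming rule, 49 had a log2 fold change that moved by more than 1.5 times when 1 of the 10 rats was left out, and 26 changed sign. Beside most estimates of these 53 miRNAs given below stand values without such a rat. Estimates of other miRNAs, of WT rats, of the interaction and of other treatments are given without them.

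After TMM scaling, fold changes were small and balanced in direction. This scaling sets the bulk of the log2 fold changes near 0, so the balance describes relative levels and not total miRNA content. The estimate was above 0 for 82 miRNAs and below 0 for 72, with a median of 0.05 and a range from -0.91 (miR-150-3p) to 1.76 (miR-27a-5p). For 125 of the 154 miRNAs the log2 fold change was within 0.5 of 0, and for 2 it was over 1. The precision was limited: the median standard error was 0.40 and the median 95% interval reached 0.84 to either side. The interval lay within 1 log2 unit of 0 for 55 miRNAs and within 2 for 148, so that a change of 4-fold or more was outside the interval for nearly all, whereas a doubling was outside it for only 35.7%. The interval lay within 1 log2 unit for 12 of the 21 miRNAs over 10000 CPM and for 21 of the 86 under 1000 CPM.

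**Figure D1:**
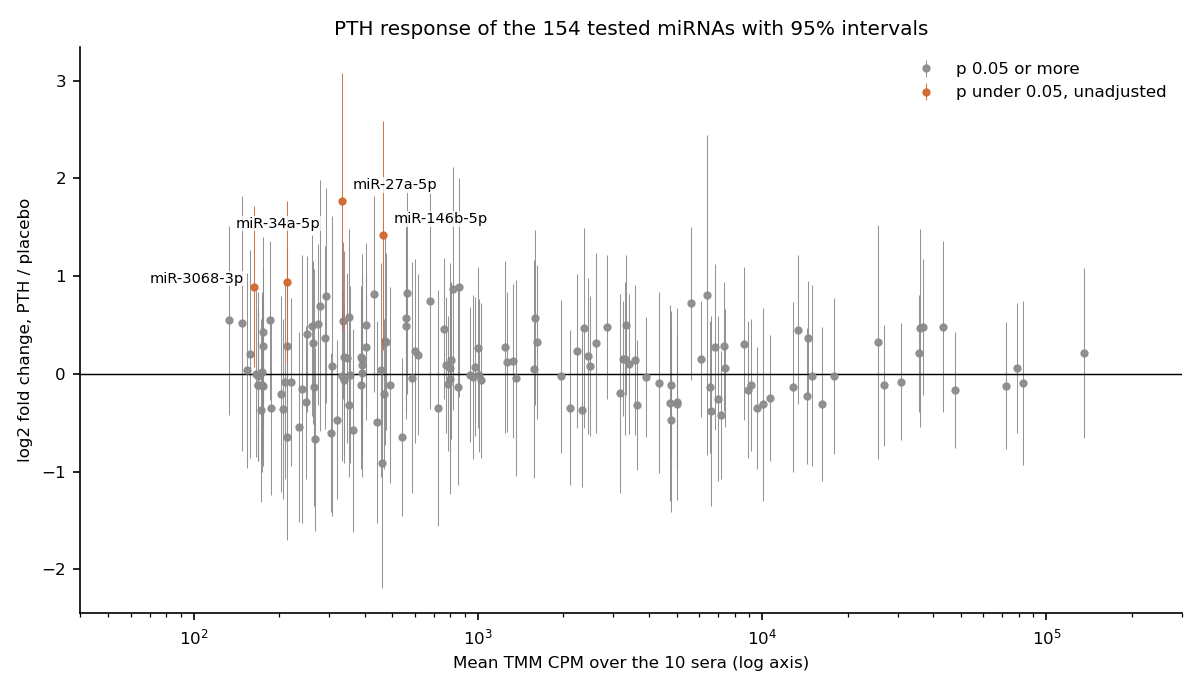
Each point is 1 of the 154 tested miRNAs, with its mean TMM CPM over the 10 sera on a log axis and its log2 fold change (PTH over placebo) with the 95% interval. The 4 miRNAs with an unadjusted p under 0.05, in orange, all lie above 0 and under 1000 CPM, and none has an FDR under 0.2.

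MiR-27a-5p, the minor arm of a hairpin whose 3p arm restrains fat cell and osteoclast formation, had the largest fold change. Its level was 239, 175, 220, 72.2 and 35.4 CPM in placebo rats 1 to 5 and 365, 758, 1170, 95.9 and 190 CPM in PTH-treated rats 1 to 5. PTH-treated rats 1, 2 and 3 were above every placebo rat, while PTH-treated rats 4 and 5 lay within the placebo range. The log2 fold change was 1.76 ± 0.62 (SE, n = 5 and 5; edgeR FDR 0.993, exact permutation p = 0.103). It was 1.22 without PTH-treated rat 3, and the counts behind it were 2 to 108 reads per library. The opposite arm, miR-27a-3p, was measured at 7265 ± 1754 CPM under placebo and 7577 ± 1372 CPM under PTH (mean ± SD, n = 5 each), with a log2 fold change of 0.06 ± 0.28 (SE).

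MiR-146b-5p, which dampens inflammatory signalling by targeting Irak1 and Traf6, was at 331, 175, 315, 332 and 106 CPM in placebo rats 1 to 5. In PTH-treated rats 1 to 5 it was at 457, 407, 1929, 329 and 253 CPM. PTH-treated rat 3 was far above all others, PTH-treated rats 1 and 2 were slightly above the highest placebo rat, and PTH-treated rats 4 and 5 were inside the placebo range. The log2 fold change of 1.42 ± 0.56 (SE; edgeR FDR 0.993, exact permutation p = 0.103) was 0.54 without rat 3, on 6 to 178 reads per library. MiR-146a-5p, with the same seed, had a log2 fold change of 0.14 ± 0.36 (SE), which was -0.044 without placebo rat 3 and 0.51 without placebo rat 4.

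MiR-34a-5p, a p53-induced miRNA that restrains osteoblast and osteoclast differentiation, showed the least dependence on single libraries of the 4. It was at 166, 81.8, 141.5, 130 and 213 CPM in placebo rats 1 to 5 and at 365, 379, 260, 137 and 253 CPM in PTH-treated rats 1 to 5. Of the PTH-treated rats, 4 were above all placebo rats, and rat 4 was in the middle of the placebo values. The log2 fold change was 0.94 ± 0.39 (SE; edgeR FDR 0.993, exact permutation p = 0.0397), with values of 0.76 to 1.11 when 1 rat at a time was omitted. It rested on 7 to 28 reads per library.

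MiR-3068-3p was at 73.6, 105, 149, 130 and 106 CPM in placebo rats 1 to 5 and at 339, 126.4, 293, 164 and 148 CPM in PTH-treated rats 1 to 5. PTH-treated rats 1 and 3 were highest, rat 4 was just above the placebo range, and rats 2 and 5 were within it. The log2 fold change was 0.89 ± 0.39 (SE; edgeR FDR 0.993, exact permutation p = 0.0397), on 4 to 27 reads per library. It was 0.27 when PTH-treated rats 1 and 3 were left out, against 1.11 for miR-27a-5p, 0.30 for miR-146b-5p and 0.74 for miR-34a-5p.

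The next 6 miRNAs by p had log2 fold changes of -0.64 to 0.89, and the groups overlapped for each. MiR-19a-3p, of the miR-17-92 cluster, was at 1683 to 6165 CPM under placebo (median 4379) and 4333 to 11011 CPM under PTH (median 5756), a log2 fold change of 0.72 ± 0.37 (SE). MiR-429 (0.82 ± 0.47) and miR-200a-3p (0.89 ± 0.53), both of the epithelial miR-200 family that represses Zeb1 and Zeb2, had their highest value in PTH-treated rat 1, at 1240 and 2767 CPM. Without rat 1 they were 0.23 for either miRNA, and without PTH-treated rats 1 and 3 these log2 fold changes were 0.17 and -0.27. MiR-30e-3p had a log2 fold change of 0.83 ± 0.49 (SE), one of 0.35 without rat 3 and one of -0.22 without the same 2 rats. On the side of lower levels, miR-362-3p, of an X-linked cluster, was at 472 to 903 CPM under placebo and 238 to 781 CPM under PTH, with PTH-treated rat 4 the only one of its group above 392 CPM. Its log2 fold change was -0.64 ± 0.38 (SE; exact permutation p = 0.0635) and -1.03 without that rat. Let-7b-5p, of the let-7 family that restrains Lin28 and Hmga2, was at 216.7 to 285 CPM in the PTH-treated rats and 202 to 655 CPM in the placebo rats (-0.60 ± 0.38, and -0.30 without placebo rat 5).

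**Figure D2:**
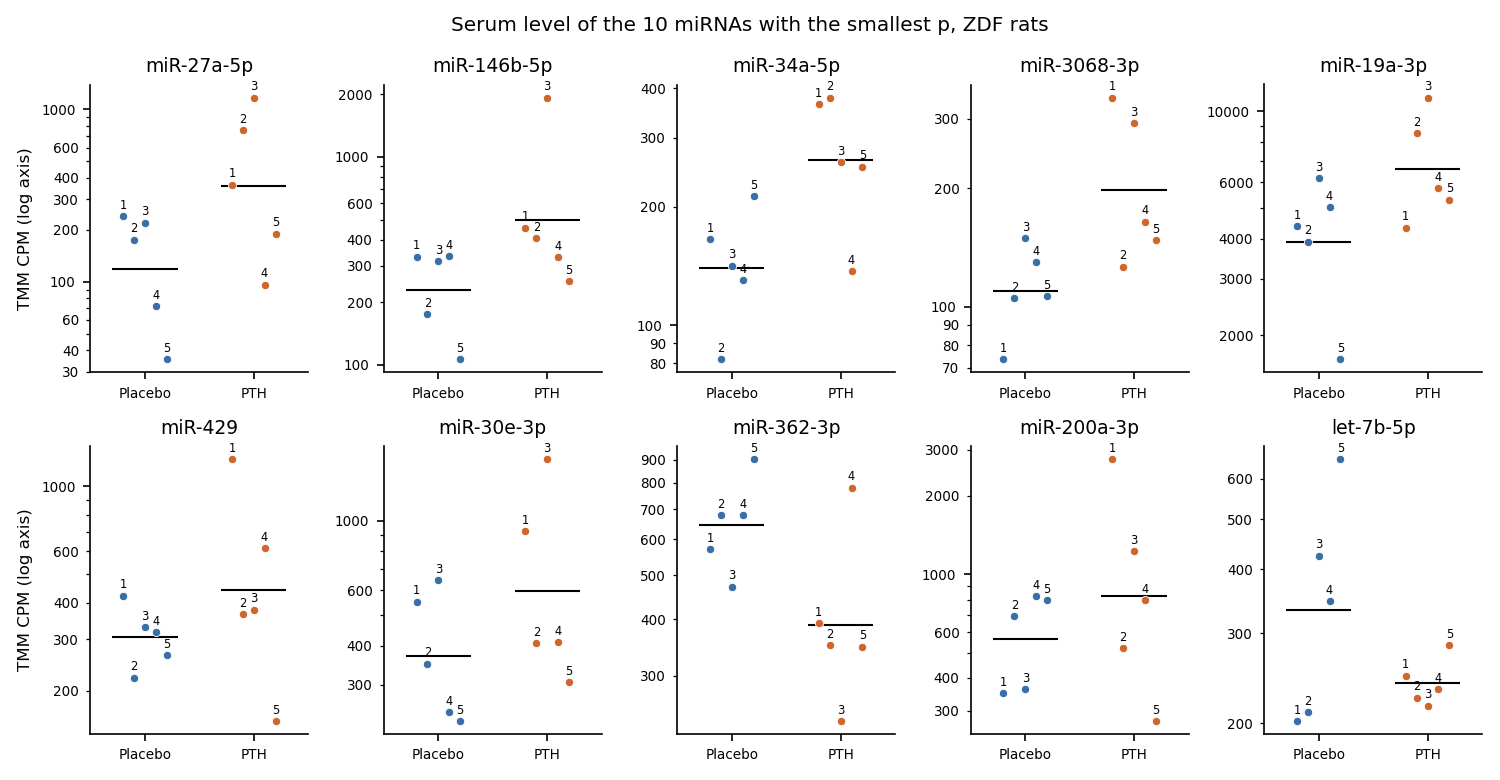
TMM CPM on a log axis of the 10 miRNAs with the smallest p in the 5 placebo (blue) and 5 PTH-treated (orange) ZDF rats, numbered by rat, with the geometric mean of each group as a line. The groups overlap in every panel, and PTH-treated rats 1 and 3 hold the highest value in 7 of the 10 panels.

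PTH-treated rats 1 and 3 stood apart from the other sera. Over the 154 miRNAs their median correlation with the other 9 sera was 0.870 and 0.889 (Pearson r of log2 CPM), against 0.932 to 0.95 for the other 8. Rat 1 held the highest or lowest value of the 10 sera at 64 of the 154 miRNAs and rat 3 at 62, whereas the other rats held it at 11 to 35. The SD of log2 CPM was larger under PTH than under placebo at 109 miRNAs, with a median of 0.71 against 0.51. The median was 0.62 under PTH without rat 3. Without rats 1 and 3, which left 3 PTH-treated rats against 5 placebo rats, 168 miRNAs were tested. Of these, 0 had an FDR under 0.2, as in the full comparison, and 3 had an unadjusted p under 0.05.

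A red cell signature marked rat 3. MiR-451-5p is made in erythrocytes and miR-23a-3p is low in them, so the log2 of the former over the latter is a common measure of hemolysis. It was 4.29 in PTH-treated rat 3, at -1.43 to 1.55 in the other PTH-treated rats and at -0.49 to 1.41 in the placebo rats. Both parts of the ratio were extreme in rat 3. MiR-451-5p was at 91423 CPM against 7639 to 52224 CPM in the other sera, and miR-23a-3p at 4682 CPM against 10715 to 25650 CPM. PTH and placebo rats differed by 0.63 in this ratio (exact permutation p = 0.579) and by -0.11 without rat 3. Rat 3 also had the fewest reads of the synthetic RNAs added at extraction, 51220 against 121803 to 574298 in the other sera. Its miRNA reads per extraction-control read were 2.05, against 0.145 to 0.538 in the other PTH-treated rats and 0.101 to 0.405 in the placebo rats. The log2 difference between the groups in this measure of miRNA content was 1.22 (exact permutation p = 0.127). It was 0.66 without rat 3 and 0.37 without rats 1 and 3, and it was 1.62 without PTH-treated rat 4, the lowest of its group (exact permutation p = 0.0397). The share of library reads on miRNAs was 0.894% to 2.64% under PTH and 0.687% to 1.57% under placebo. Whether hemolysis or miRNA content had a part in the differences of single miRNAs was not tested beyond a fit with the hemolysis ratio as a covariate, in which 0 miRNAs passed the FDR and miR-27a-5p had a log2 fold change of 1.28, miR-146b-5p of 0.73 and miR-34a-5p of 0.96.

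**Figure D3:**
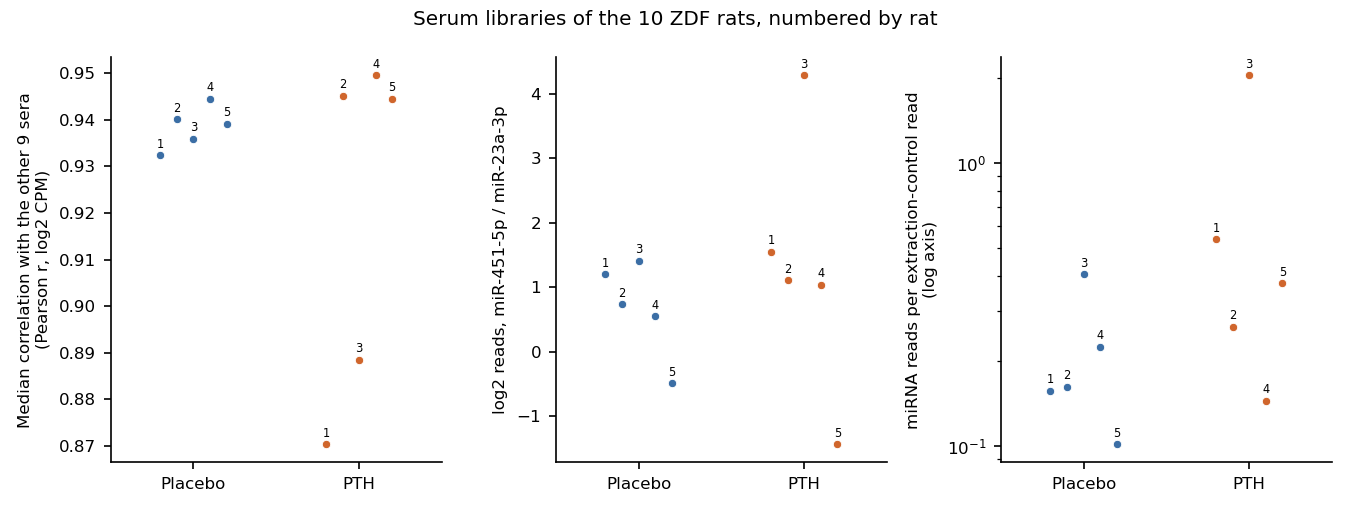
The 10 sera numbered by rat, placebo in blue and PTH in orange: the median Pearson correlation with the other 9 sera, log2 reads of miR-451-5p over miR-23a-3p, and the miRNA reads per extraction-control read on a log axis. PTH-treated rats 1 and 3 are lowest in the first panel, and rat 3 is highest in the other panels, at 4.29 and 2.05.

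Lists of miRNAs that mark tissues and bone regulation held 0 members at an FDR under 0.2, as did the 154 miRNAs together (0%). None of the bone-related miRNAs except miR-34a-5p, described above, had an unadjusted p under 0.05. Of the 5 tested osteogenesis regulators, 2 were higher and 3 lower, with a median log2 fold change of -0.17. MiR-21-5p, which promotes osteoclast formation, was at 50406 ± 14300 CPM under placebo and 44929 ± 3412 CPM under PTH (mean ± SD), a log2 fold change of -0.17 ± 0.28 (SE) that was -0.35 without placebo rat 3 and -0.050 without placebo rat 5. MiR-203a-3p, a repressor of the osteoblast factors Runx2 and Dlx5, had -0.37 ± 0.37 (-0.13 without PTH-treated rat 3), miR-31a-5p had -0.67 ± 0.44 (-0.40 without placebo rat 4) and miR-138-5p, a restrainer of osteoblast differentiation, had 0.33 ± 0.43 (-0.12 without PTH-treated rat 4). Of the 3 members of the miR-29 family, which represses collagens, miR-29a-3p had 0.21 ± 0.28, miR-29b-3p 0.16 ± 0.41 and miR-29c-3p -0.16 ± 0.33. Without PTH-treated rat 1 these were 0.016, -0.28 and -0.52. Cartilage-enriched miR-140-3p and miR-140-5p had -0.12 ± 0.29 and -0.35 ± 0.42, with -0.25 for the former without placebo rat 3 and -0.19 for the latter without PTH-treated rat 1. Among the osteoblast and mesenchymal miRNAs, miR-199a-3p was at 117 to 350 CPM under placebo and 54.8 to 770 CPM under PTH. Its log2 fold change of 0.80 ± 0.52 was 0.34 without PTH-treated rat 1 and -0.020 without PTH-treated rats 1 and 3. The opposite arm miR-199a-5p had -0.21 ± 0.48, which was -0.67 without PTH-treated rat 1 and 0.23 without placebo rat 5. MiR-214-3p, a repressor of Atf4, had 0.09 ± 0.54, which was -0.42 without PTH-treated rat 5 and 0.49 without placebo rat 5.

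Estimates for blood cell and vessel miRNAs lay on both sides of 0, and miR-146b-5p was the only one with an unadjusted p under 0.05. In the erythrocyte list miR-451-5p had a log2 fold change of 0.47 ± 0.48 (SE) and one of -0.02 without PTH-treated rat 3, whose 91423 CPM was the highest of the 10 sera. From the same cluster, miR-144-3p had -0.09 ± 0.44 and miR-144-5p 0.23 ± 0.44, or -0.54 and -0.15 without that rat. MiR-486, which was named without an arm and stood outside the list, had -0.10 ± 0.40, or -0.44 without rat 3. Myeloid and platelet miR-223-3p had -0.02 ± 0.38 (-0.30 without PTH-treated rat 4) and miR-142-5p -0.31 ± 0.47 (-0.052 without placebo rat 4). Lymphocyte miR-150-5p had -0.48 ± 0.44, which was -0.076 without placebo rat 4, and its opposite arm miR-150-3p -0.91 ± 0.60, the lowest estimate of all. Of the miR-181 family, miR-181a-5p had -0.03 ± 0.29, miR-181b-5p 0.07 ± 0.34 and miR-181d-5p 0.28 ± 0.42, or -0.25, -0.076 and 0.44 without PTH-treated rat 1. Endothelial miR-126a-3p and miR-126a-5p had -0.32 ± 0.31 and -0.25 ± 0.40, or -0.15 and -0.017 without PTH-treated rat 3. MiR-221-3p and miR-222-3p, of the same list, had 0.23 ± 0.37 and 0.51 ± 0.39, or -0.12 and 0.30 without PTH-treated rat 1. Smooth muscle miR-143-3p had 0.32 ± 0.56 and miR-145-3p 0.08 ± 0.73. Without PTH-treated rat 1 these were -0.44 and -0.73, and without placebo rat 1 they were 0.96 and 0.74.

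Organ markers varied widely between rats of a group. Striated muscle miR-133a-3p ranged from 1134 to 10248 CPM under placebo and from 239 to 21573 CPM under PTH, so that its log2 fold change of 0.81 had an SE of 0.77, the largest of all tested miRNAs, and was 0.06 without PTH-treated rat 1 and -0.97 without PTH-treated rats 1 and 3. It was the only member of the muscle list with enough reads to be tested. Of the liver miRNAs, all 3 tested had an estimate below 0, from -0.58 (miR-122-3p) to -0.05 (miR-122-5p). Without placebo rat 5 the former was -0.18, and without PTH-treated rat 2 the latter was 0.17. These 2 are arms of 1 hairpin. All 3 liver miRNAs are on the study list described below, which was chosen with these placebo rats. Over the 154 tested miRNAs, 72 had an estimate below 0. Islet-enriched miR-375-3p was at 3390 ± 1618 CPM under placebo and 2954 ± 2140 CPM under PTH (mean ± SD), a log2 fold change of -0.20 ± 0.48 (SE), and miR-7a-1-3p had 0.06 ± 0.41. Without PTH-treated rat 4 the former was -0.56, and without PTH-treated rat 5 the latter was -0.24. MiR-192-5p, abundant in gut, liver and kidney, had -0.31 ± 0.47, which was -0.65 without PTH-treated rat 4 and 0.044 without placebo rat 4.

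**Figure D4:**
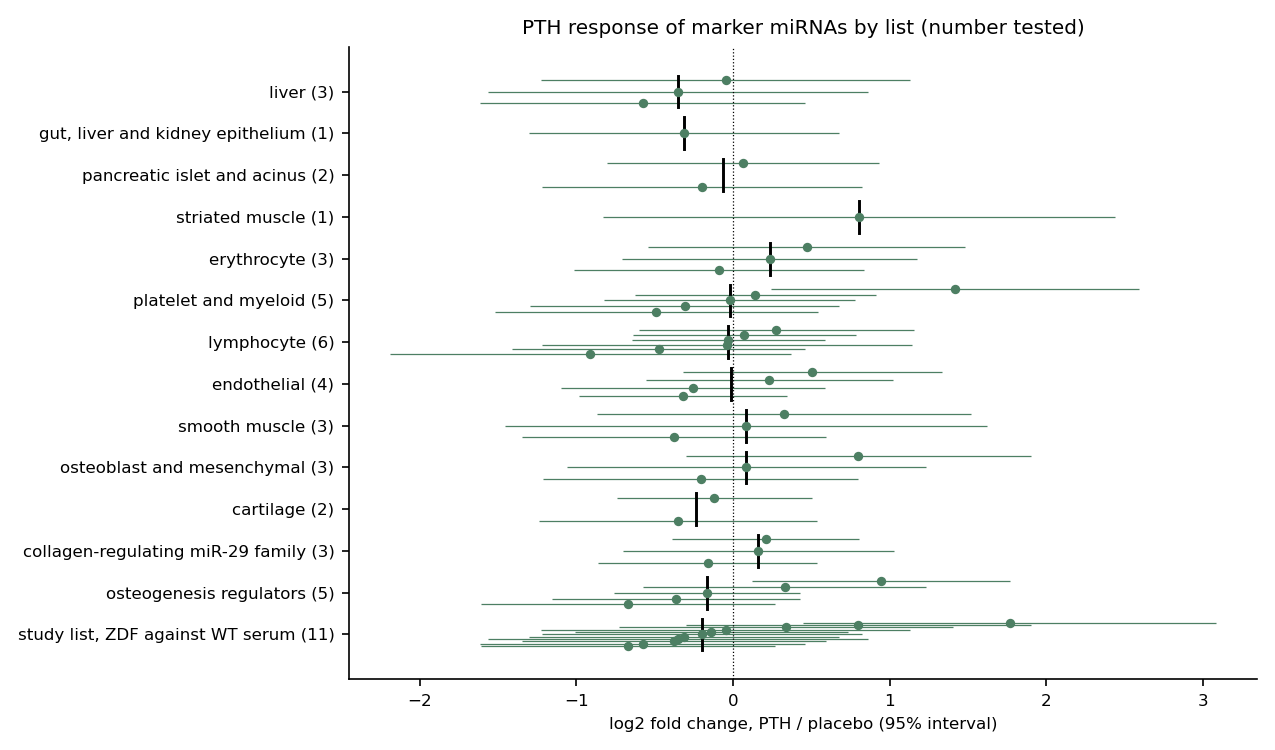
Log2 fold change (PTH over placebo) with the 95% interval of each tested member of the marker lists, with the number tested in brackets and the list median as a black bar. All intervals cross 0 except those of miR-146b-5p, miR-34a-5p and miR-27a-5p, and no list has a member at an FDR under 0.2.

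The study named 12 serum miRNAs that separate placebo-treated ZDF from WT rats, and 11 of them were tested here. The list was chosen with these placebo rats, so its values under PTH are not independent of that choice. MiR-122-3p, miR-122-5p, miR-375-3p, miR-192-5p and miR-31a-5p, described above, are also on it. Of the 11, 3 had an estimate above 0 (miR-27a-5p, miR-199a-3p and miR-100-5p) and 8 below 0, with a median of -0.20 against 0.05 over all tested miRNAs, and 0 passed the FDR. MiR-802-5p, a liver miRNA linked to impaired insulin action in obesity, was at 957, 210, 810, 823 and 1275 CPM in placebo rats 1 to 5 and at 457, 449, 75.9, 1179 and 1022 CPM in PTH-treated rats 1 to 5. Its PTH values spanned more than its placebo values, and the log2 fold change of -0.35 ± 0.57 (SE) was -0.032 without PTH-treated rat 3 and -0.75 without PTH-treated rat 4. MiR-145-5p, a smooth muscle miRNA, was at 3349 to 11089 CPM under placebo and 986 to 7661 CPM under PTH, with rat 3 alone below 5518 CPM. Its log2 fold change of -0.38 ± 0.46 was -0.078 without that rat. MiR-100-5p, which targets the BMP receptor Bmpr2, was at 281 to 496 CPM under placebo, and under PTH it was at 1135 and 834 CPM in rats 1 and 3 and at 168 to 306 CPM in the other 3 rats. Its log2 fold change of 0.34 was -0.13 without rat 1 and -1.003 without rats 1 and 3. Ubiquitous miR-320-3p had -0.14 ± 0.41, which was -0.58 without PTH-treated rat 4 and 0.11 without PTH-treated rat 3.

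MiRNAs that share a seed, a hairpin or a transcript gave a further description of the same estimates. Of the 7 let-7 miRNAs with the seed GAGGUAG, 5 were above 0 and 2 below, from -0.60 (let-7b-5p) to 0.59 (miR-98-5p), and near-identical members of this family can share reads. The 4 members of the miR-92a-3p and miR-25-3p seed family ranged from -0.65 to 0.48, and the 3 of miR-148a-3p from 0.41 to 0.50. In the miR-17-92 cluster of chromosome 15, 5 of 6 tested miRNAs were above 0, with a median of 0.24, against 82 of all 154. Of these, miR-17-5p, miR-19b-3p and miR-92a-3p also have a locus in a cluster on chromosome X, so their reads cannot be assigned to 1 cluster. The cluster of miR-23a, miR-27a and miR-24-2 on chromosome 19 held miR-27a-5p at 1.76 beside 4 miRNAs at -0.31 to 0.37. One of these, miR-24-3p, also has a locus on chromosome 17. Both arms were tested for 21 hairpins, with the same sign for 13 and a median absolute difference of 0.32 between the arms, and miR-27a had the largest difference, 1.70.

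In edgeR the count of calls depended on the treatment of near-empty miRNAs. DESeq2 on all 462 miRNAs with a read gave 0 calls. When the same 462 miRNAs entered the edgeR fit, 5 (1.08%) had an FDR under 0.2, all higher under PTH. They were miR-218a-5p (FDR 0.00449), miR-344a-3p (0.0241), miR-27a-5p (0.0241), miR-217-5p (0.0654) and miR-146b-5p (0.0945). MiR-218a-5p, which promotes osteoblast differentiation, had 3, 1, 11, 2 and 3 reads in placebo rats 1 to 5 and 71, 0, 33, 4 and 7 reads in PTH-treated rats 1 to 5. Only PTH-treated rats 1 and 3 were above the highest placebo rat, and the exact permutation p was 0.675. MiR-217-5p, a pancreatic acinar miRNA, had 2 reads over the 5 placebo rats and 16, 0, 3, 0 and 3 reads in PTH-treated rats 1 to 5. MiR-344a-3p had no read under placebo and 9 and 5 reads in PTH-treated rats 1 and 3. In this fit all miRNAs were given a shared spread (infinite prior degrees of freedom), against 8.51 prior degrees of freedom after low counts were removed.

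In WT rats, which have an intact leptin receptor, 5 sera under PTH were compared with 5 under placebo by the same test, and 0 of 170 miRNAs (0%) passed the FDR. All miRNAs of at least 1 read were also fitted, with the mean CPM filter set where it gave most calls. Of the 278 miRNAs this filter kept, 3 (1.08%) passed. Whether the response differed between the genotypes was tested by an interaction term, and 0 of 182 miRNAs (0%) passed, with a lowest FDR of 0.922 and 8 miRNAs at an unadjusted p under 0.05. The smallest p again belonged to miR-27a-5p, with a log2 fold change under PTH of 1.80 in ZDF and -0.52 in WT rats, a difference of 2.31 ± 0.88 (SE). MiR-34a-5p (0.90 in ZDF, -0.54 in WT) and miR-19a-3p (0.73 and -0.46) likewise had estimates above 0 in ZDF and below 0 in WT rats. The liver miRNAs miR-802-5p (-0.44 and 1.77) and miR-122-3p (-0.66 and 1.26) had estimates below 0 in ZDF and above 0 in WT rats. All 5 were named for their small interaction p, so estimates that differ between the genotypes follow from that choice. MiR-27a-5p, miR-802-5p and miR-122-3p are on the study list, which was chosen by the difference between these placebo groups. That difference enters the interaction, so the opposite signs of these miRNAs are not independent of the choice. In WT rats miR-802-5p ranged from 0 to 845 CPM under PTH and from 47.7 to 185 CPM under placebo.

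**Figure D5:**
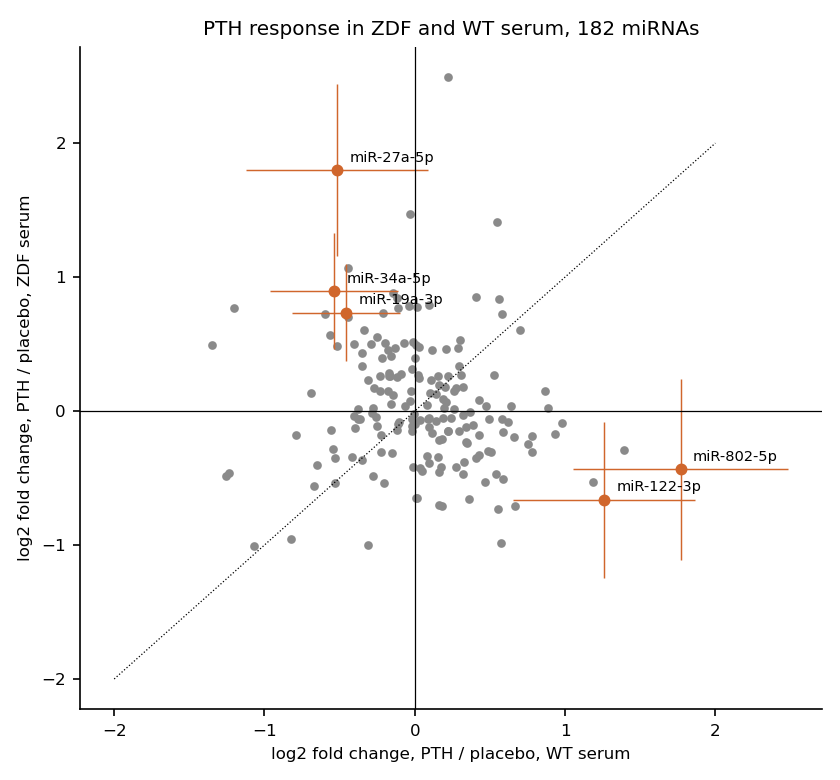
Log2 fold change under PTH in WT serum (horizontal axis) and ZDF serum (vertical axis) of 182 miRNAs from a fit of the 4 groups, with the dotted line where both are equal. The 5 miRNAs with the smallest interaction p, in orange with the SE of each estimate, lie off the line, which follows from their choice. At the FDR threshold, 0 miRNAs passed.

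The other treatments of ZDF rats were set beside PTH by the same test, with the same 5 placebo rats in each comparison. Anti-sclerostin, an antibody that builds bone (n = 4 treated rats), gave 2 calls among 158 miRNAs (1.27%), both lower (miR-126a-3p and miR-143-3p). Insulin (n = 4 treated rats) gave 40 among 151 (26.5%), with 17 higher and 23 lower. In fits of all miRNAs of at least 1 read, the mean CPM filter was set where it gave most calls. Of the miRNAs it kept, 24 of 299 (8.03%) were called for anti-sclerostin and 49 of 309 (15.9%) for insulin. For PTH this filter kept all 462 miRNAs, with 5 calls. The median absolute log2 fold change was 0.26 under PTH, 0.41 under anti-sclerostin and 0.47 under insulin, with median standard errors of 0.40, 0.44 and 0.34. MiR-27a-5p had log2 fold changes of 1.76 under PTH, 0.08 under anti-sclerostin and 1.71 under insulin (edgeR FDR 0.993, 0.938 and 0.065), with a smaller SE under insulin (0.52) than under PTH (0.62). With all sera scaled together, miR-451-5p averaged 154690 CPM in the insulin-treated ZDF rats and 29914 CPM in the placebo ZDF rats. Whether red cell RNA had a part in the insulin calls was not tested, nor were the differences between treatments.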

How the data were processed

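Small RNA-seq libraries of serum were analysed from ZDF rats given PTH or placebo (n = 5 each, separate rats), with the other serum groups for comparison; groups were taken from the labels. Per the labels and the study's methods, the authors removed adapters with cutadapt, aligned the reads by Bowtie and miRDeep2 first to the genome of the rat and next to miRBase, and deposited the count of reads on each mature miRNA without normalization. A deposited RPM column, relative to the whole library, gave the library totals; RPM scaled to miRNA reads was not used. Synthetic control RNAs did not enter the miRNA totals.

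Tests used edgeR 4.0.16 under R 4.3.3, and DESeq2 1.42.0 as an alternative. MiRNAs kept by filterByExpr (minimum count 10) were TMM-scaled and compared by edgeR's quasi-likelihood test with robust = FALSE and legacy = TRUE, with independent filtering on mean CPM (50 quantiles, up to 0.95) by the stopping rule of DESeq2, Benjamini-Hochberg adjustment and an FDR threshold of 0.2. Only the groups compared were in the fit. Tests were two-sided, and single levels were also compared by exact permutation of log2(CPM + 1). The code was tested on simulated counts. Libraries of the same group differed by more than counting noise in all 20 pairs (chi-squared per degree of freedom at least 12.7). Depth over the 32 sera was 28015 to 205664 miRNA reads, so that miRNAs under 1000 CPM rest on few reads and carry counting error as well as the spread between rats.

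The miRNAs named are the 10 with the smallest p, the 6 most abundant, the 5 smallest interaction p, 12 that the study names and the tested members of each list, up to the 4 most abundant; the relatives, seed families and low-count miRNAs were added after their values were seen. The comparison and lists were chosen with earlier results of these data known. Alternatives tried were RLE size factors, library totals, DESeq2, all miRNAs with at least 1 read, the filter quantile with most calls, legacy = FALSE, robust = TRUE, FDR < 0.05, all 7 serum groups in the fit, the hemolysis ratio (pseudocount 0.5) as a covariate, and each rat left out; leaving out PTH-treated rats 1 and 3 together was added after the data were seen.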

Additional observations from a re-analysis of the deposited data

Results flagged for a closer look

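In 116 sets of 5 values (the named miRNAs and 5 library measures in each group), 5 single rats stood far from the other 4 of their group by Dixon's test, and chance flags about 1 in 20 such sets. Placebo rat 1 had 45778 CPM of miR-16-5p, against 80957 to 85385 CPM in the other placebo rats. Placebo rat 2 was low in the liver miRNAs, with 210 CPM of miR-802-5p (810 to 1275 CPM in the others) and 58.4 CPM of miR-122-5p (771 to 1227 CPM). Placebo rat 5 had 88.6 CPM of miR-140-5p, against 202 to 275 CPM. PTH-treated rat 3, the serum with the highest hemolysis ratio, had 986 CPM of miR-145-5p, against 5518 to 7661 CPM.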

How the results depend on the processing

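The count of miRNAs at an FDR under 0.2 between PTH and placebo was 0 with RLE size factors, library totals, DESeq2, the filter quantile with most calls after filterByExpr, legacy = FALSE, robust = TRUE, an FDR of 0.05, all 7 serum groups in the fit, the hemolysis covariate and each rat left out (0 to 0). It was 0 without PTH-treated rats 1 and 3, a choice made after seeing the data. It was 5 when all miRNAs with at least 1 read were fitted by edgeR, with or without further filtering. These were 5 of 462 miRNAs (1.08%). Without further filtering, 1 of 6 pancreatic and 1 of 8 platelet and myeloid miRNAs with a read passed. So did 1 of 19 osteogenesis and 2 of 12 study-list miRNAs, and miR-218a-5p is on both of these lists. With the filter quantile with most calls, the count was 3 of 278 (1.08%) for PTH in WT rats. It was 24 of 299 (8.03%) for anti-sclerostin in ZDF rats. The count for the interaction was 0 in every alternative tried. The median shift of the single log2 fold changes was 0.011 with RLE size factors and -0.074 with library totals. The median log2 fold change itself was 0.05 in the main fit.

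Of 53 named miRNAs tested, 20 kept the sign of the estimate in all 21 alternatives, among them miR-27a-5p, miR-146b-5p, miR-34a-5p and miR-3068-3p. Where the sign turned, the estimate was as follows. With all miRNAs of at least 1 read it was 0.0044 for miR-486, 0.0030 for miR-122-5p, 0.011 for miR-144-3p, 0.011 for miR-181a-5p and 0.042 for miR-223-3p. With library totals it was -0.037 for miR-92a-3p, -0.0043 for miR-214-3p and -0.026 for miR-7a-1-3p, and with all 7 groups -0.023 for miR-214-3p, -0.0051 for miR-7a-1-3p and -0.046 for miR-145-3p. With the hemolysis covariate it was -0.061 for miR-25-3p, -0.18 for miR-451-5p, -0.20 for miR-144-5p, -0.10 for miR-181b-5p and 0.016 for miR-223-3p. Without PTH-treated rats 1 and 3 it was -0.22 for miR-30e-3p, -0.27 for miR-200a-3p, -0.26 for miR-25-3p, 0.012 for miR-802-5p, -1.003 for miR-100-5p, 0.028 for miR-192-5p, -0.020 for miR-199a-3p, 0.21 for miR-320-3p, 0.10 for miR-375-3p, 0.019 for miR-140-3p, -0.17 for miR-29b-3p, -0.28 for miR-221-3p, -0.071 for miR-222-3p, -0.17 for miR-451-5p, -0.21 for miR-144-5p, -0.37 for miR-181b-5p, 0.32 for miR-223-3p, 0.056 for miR-142-5p, -0.13 for miR-146a-5p, -0.41 for miR-143-3p, -0.65 for miR-145-3p and -0.97 for miR-133a-3p, and the hemolysis difference was -0.44. With each rat left out in turn, 26 estimates turned at least once, with ranges of -0.13 to 0.61 for miR-100-5p, -0.42 to 0.17 for miR-122-5p, -0.12 to 0.55 for miR-138-5p, -0.25 to 0.019 for miR-140-3p, -0.44 to 0.96 for miR-143-3p, -0.54 to 0.21 for miR-144-3p, -0.15 to 0.48 for miR-144-5p, -0.73 to 0.74 for miR-145-3p, -0.044 to 0.51 for miR-146a-5p, -0.25 to 0.080 for miR-181a-5p, -0.076 to 0.24 for miR-181b-5p, -0.11 to 0.40 for miR-191a-5p, -0.65 to 0.044 for miR-192-5p, -0.67 to 0.23 for miR-199a-5p, -0.42 to 0.49 for miR-214-3p, -0.12 to 0.43 for miR-221-3p, -0.30 to 0.15 for miR-223-3p, -0.072 to 0.76 for miR-25-3p, -0.28 to 0.35 for miR-29b-3p, -0.52 to 0.047 for miR-29c-3p, -0.58 to 0.11 for miR-320-3p, -0.56 to 0.023 for miR-375-3p, -0.020 to 0.78 for miR-451-5p, -0.44 to 0.18 for miR-486, -0.24 to 0.27 for miR-7a-1-3p and -0.056 to 0.20 for miR-92a-3p. The hemolysis difference ranged from -0.11 to 1.32 and the difference in log2 miRNA reads per extraction-control read from 0.66 to 1.62. The cause of these shifts was not tested. The labels link no rat of one group to a rat of the other, so no analysis by pairs was made.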
